A study of Homo sapiens with 4 samples.

Results

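The genes described here are 44 genes of Wnt signalling: ligands and their export factors, receptors and co-receptors, secreted inhibitors, cytoplasmic components, and the transcription factors and corepressors at the end of the pathway. They were chosen by name, and each was read from the probe sets whose platform annotation names that gene alone. This found 40 of the 44 genes, on 111 probe sets, among 19775 genes on the array. WNT3 and FZD8 are listed on the array only by probe sets that name another gene too, and WNT3, FZD8, PORCN and TCF7 were not analysed here. The cells were UM-UC-3, a bladder cancer line of human origin, and expression was measured on 4 Affymetrix HG-U133 Plus 2.0 arrays. The GFP-RhoGDI2 group had 2 arrays, from cells carrying a stably transfected fusion of GFP with RhoGDI2, the protein encoded by ARHGDIB. The GFP group had 2 arrays, from cells that carried GFP alone as the empty vector, introduced with the puromycin selection plasmid pBABE PURO. The lines had been sorted by fluorescence, and RNA was taken in log phase growth at different times, as preparations A and B, which pair the groups. For the GFP-RhoGDI2 samples the free-text description speaks of the control transfection instead, so the groups were taken from their titles, which match the source names and genotype labels. The labels do not say whether a group came from 1 clone or from separate transfections, so differences that arose when a line was made and those due to the introduced gene cannot be told apart.

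Values are log2 RMA expression values, and a difference is GFP-RhoGDI2 minus GFP on that scale. ARHGDIB, at its brightest probe set, was at 11.94 and 11.58 in preparations A and B of GFP-RhoGDI2 cells, against 6.51 and 6.27 in GFP cells. Of its other 2 probe sets, one was higher by 0.94 (adjusted p = 0.00794), and the other differed by -0.02 with overlapping groups (adjusted p = 0.953). Of 15 epithelial and urothelial markers matched on the array, 5 (KRT7, KRT8, KRT18, GATA3 and PPARG) were at or above the filter level of 4.64, the median of all probe set means. KRT5, KRT19, KRT20, EPCAM, CDH1, FOXA1 and the uroplakins UPK1A, UPK1B, UPK2 and UPK3A were below it in their mean over the 4 arrays. By that mean, of the markers of bladder epithelium a few keratins and factors alone were present at that level. UPK1A read 4.95 and 4.55 in GFP-RhoGDI2 cells and 4.18 and 4.03 in GFP cells. Its difference was 0.65, with an adjusted p of 0.0388 in the fit with no filter. KRT8 and KRT18 were called lower in GFP-RhoGDI2 cells (differences of -1.23 and -0.59) and PPARG higher (1.27). PPARG read 5.85 and 5.77 in GFP-RhoGDI2 cells and 4.46 and 4.61 in GFP cells. Its GFP mean was below the filter level, so it entered the test only through the group where it read higher. The part of these markers in the differences of the Wnt genes was not tested. Of 12 mesenchymal markers, 7 were at or above that level, and of 8 blood cell markers 0 were. CDH2 was the 1 mesenchymal marker called, higher by 0.68. The mean log2 level of the blood cell markers was 3.72 to 3.87 on the GFP-RhoGDI2 arrays and 3.80 to 3.84 on the GFP arrays. No array carries a read depth, and the number of arrays limits the precision.

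Wnt proteins are secreted lipid-modified ligands that bind Frizzled receptors together with a co-receptor. With LRP5 or LRP6 as co-receptor, the signal passes through Dishevelled, stops the destruction complex of APC, Axin and GSK3 from removing beta-catenin, and lets beta-catenin switch TCF/LEF factors and their TLE corepressors from repression to activation of target genes. Other ligands, with WNT5A as the best known, act largely through ROR and RYK co-receptors and the planar cell polarity proteins, on the cytoskeleton and cell movement, without stabilising beta-catenin.

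Of the 40 genes, 35 had a probe set at or above the filter level and were tested, and 7 passed the threshold of adjusted p under 0.05: WNT5A, TLE4, TCF7L1, DKK3, FZD2 and FZD3 were higher in the GFP-RhoGDI2 line, and DKK1 was lower. Over all genes tested, 8.17% were called, 4.83% higher and 3.35% lower. The share among the tested Wnt genes was 20%, but the genes were chosen with results of these arrays known, and no test was made of that share. Of the 35, WNT5A and DKK1 alone differed by at least 1 on the log2 scale. The median difference of the 35 was -0.08, beside -0.01 over all genes tested, with 16 genes above 0 and 19 below. The 28 genes that were not called lay between -0.51 and 0.38. Counted by probe set, 13 of the 74 tested were called, 9 higher and 4 lower, beside 7.64% of all tested probe sets. In a bulk extract, fewer cells with a transcript and less of it per cell cannot be told apart. At its highest probe set, none of the 35 had a group mean below the filter level. Among the other called probe sets, that of APC did (4.61 in GFP-RhoGDI2 cells).

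**Figure D1:**
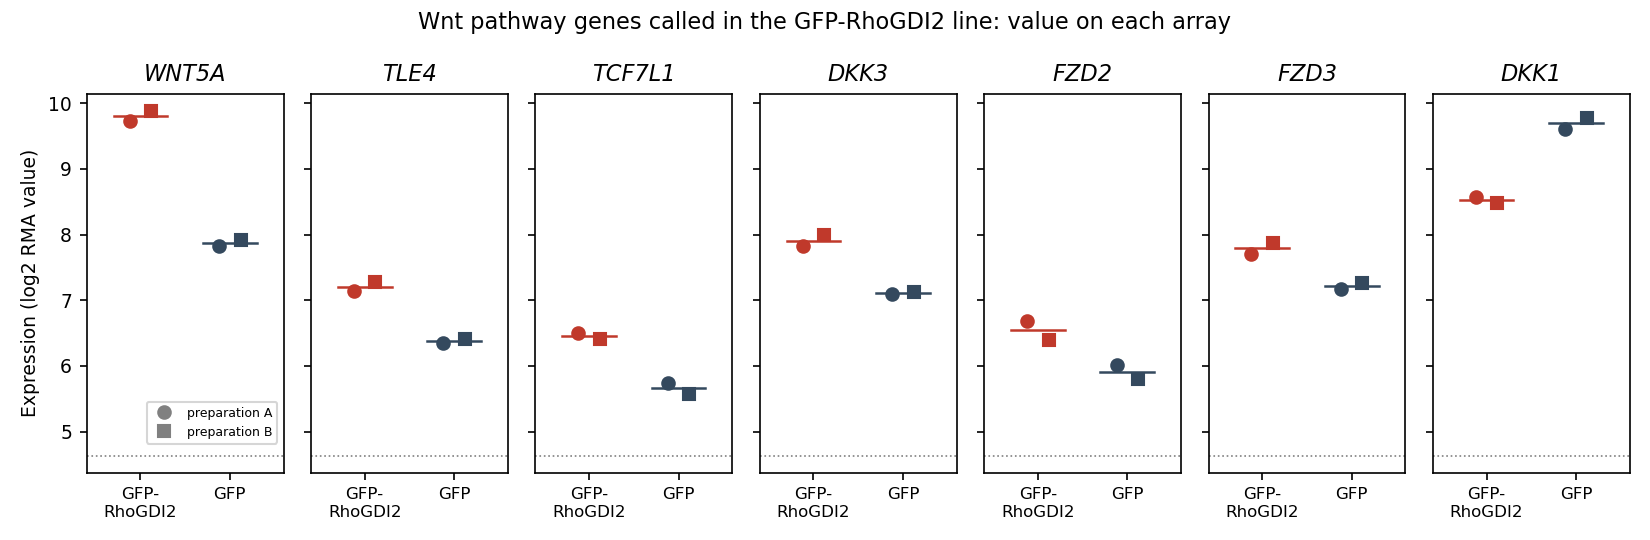
Value on each array (log2 RMA, vertical axis) of the 7 called Wnt pathway genes, with the GFP-RhoGDI2 group in red and the GFP group in dark blue; circles are preparation A, squares preparation B, bars the group means, and the dotted line the filter level of 4.64. The groups of every gene shown are separate, with DKK1 the one that is lower in the GFP-RhoGDI2 line; levels are to be compared within a panel, not between panels.

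The bases before the annotated starts of WNT5A and DKK1 are shown because these genes had the largest rise and the largest fall of the group. They are RefSeq sequences of GRCh38.p14, the 250 bases up to the start, written 5′ to 3′ on the strand of the gene, with each match to CTTTG or its reverse complement CAAAG, the core that TCF/LEF factors bind, in capitals. WNT5A, on the minus strand of chromosome 3, has windows at chr3:55487307-55487556 and chr3:55481399-55481648, and DKK1, on the plus strand of chromosome 10, has its window at chr10:52314031-52314280.
WNT5A, upstream start: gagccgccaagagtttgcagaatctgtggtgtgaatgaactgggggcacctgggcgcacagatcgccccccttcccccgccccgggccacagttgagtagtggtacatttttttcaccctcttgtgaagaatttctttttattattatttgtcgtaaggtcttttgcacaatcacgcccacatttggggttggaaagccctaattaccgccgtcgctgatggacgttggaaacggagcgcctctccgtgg
WNT5A, downstream start: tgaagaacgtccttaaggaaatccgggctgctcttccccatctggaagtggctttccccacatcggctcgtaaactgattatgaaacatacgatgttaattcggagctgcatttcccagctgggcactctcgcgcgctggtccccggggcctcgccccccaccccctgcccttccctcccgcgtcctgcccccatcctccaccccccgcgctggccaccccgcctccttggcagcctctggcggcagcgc
DKK1: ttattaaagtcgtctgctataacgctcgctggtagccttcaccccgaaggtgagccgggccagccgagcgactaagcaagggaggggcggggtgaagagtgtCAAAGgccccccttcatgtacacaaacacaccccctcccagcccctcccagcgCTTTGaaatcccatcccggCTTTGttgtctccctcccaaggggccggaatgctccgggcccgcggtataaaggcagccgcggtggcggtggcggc
The DKK1 window held 3 matches, whose first bases lay 148, 95 and 76 bases before the start, and the WNT5A windows held 0. Of 35116 windows of this length, 42.1% held CTTTG on either strand. A longer form, CTTTGAT with its reverse complement ATCAAAG, was in 2.26% of all windows. It was in 0 of the 38 windows listed for 27 of the Wnt genes. Of those 38 windows, 11 (28.9%) held CTTTG. Other longer forms were not searched for. The DKK1 match 95 bases before the start reads CTTTGAA, and that at 76 bases reads CTTTGTT. Among the called genes, windows were listed for WNT5A, DKK1, TCF7L1 and TLE4; that of TCF7L1 held 0 matches to CTTTG and each of the TLE4 windows held 1. A match is a description of the letters and no measure of binding, and use of either WNT5A start was not measured.

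Among the ligands, WNT5A alone was called. Its highest probe set read 9.73 and 9.89 on the GFP-RhoGDI2 arrays A and B, against 7.82 and 7.92 on the GFP arrays. The groups were far apart, by 1.91 in preparation A and 1.97 in preparation B. WNT5A was thus 3.83-fold higher in the GFP-RhoGDI2 line, a difference of 1.94 (SE 0.0925, adjusted p = 0.000513, 95% interval 1.71 to 2.17). Its other probe set read 8.30 and 8.43 on the GFP-RhoGDI2 arrays, against 5.87 and 6.28 on the GFP arrays, a difference of 2.29 with the same adjusted p. Both probe sets of WNT5A therefore showed the rise.

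WNT5B, the closest relative of WNT5A, was not called. It read 10.43 and 10.52 on the GFP-RhoGDI2 arrays, against 10.77 and 10.61 on the GFP arrays, a difference of -0.22 (95% interval -0.48 to 0.04, adjusted p = 0.255). WNT10B, a ligand of the beta-catenin branch, read 7.07 and 6.78 on the GFP-RhoGDI2 arrays, against 7.25 and 7.08 on the GFP arrays. The WNT10B groups lay next to each other without overlapping, with a difference of -0.24 (adjusted p = 0.181). WNT7B, another ligand of that branch, read 6.96 and 6.80 on the GFP-RhoGDI2 arrays, against 6.81 and 6.53 on the GFP arrays. Its groups overlapped, with a difference of 0.21 (adjusted p = 0.220). WNT11, a ligand known from cell movements in the embryo, was below the filter level, at 4.60 and 4.63 in GFP-RhoGDI2 cells and 4.47 and 4.60 in GFP cells. For WLS, the carrier that brings Wnt proteins to the cell surface, 3 probe sets differed by -0.27 to -0.02, and none was called (lowest adjusted p = 0.277).

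Of the Frizzled receptors, 7 were matched, 5 were tested and 2 were called, both higher in the GFP-RhoGDI2 line. FZD2, a receptor through which WNT5A can act, read 6.69 and 6.40 on the GFP-RhoGDI2 arrays and 6.02 and 5.81 on the GFP arrays. The groups did not overlap, and FZD2 was 1.55-fold higher (difference 0.63, SE 0.0931, adjusted p = 0.0201). That call was lost without the preparation block (adjusted p = 0.0550) and in fits without the block that left out any 1 array (0.0659 to 0.209), and the second FZD2 probe set did not show the rise, with 5.14 and 5.12 in GFP-RhoGDI2 cells and 5.16 and 5.27 in GFP cells (difference -0.09, adjusted p = 0.609). FZD3, a receptor of planar cell polarity and axon guidance, read 7.71 and 7.87 on the GFP-RhoGDI2 arrays and 7.17 and 7.27 on the GFP arrays. FZD3 was 1.49-fold higher (difference 0.57, SE 0.0926, adjusted p = 0.0252). All 4 FZD3 probe sets had differences above 0, between 0.27 and 0.57, and 1 of them was called; with any 1 array left out the call was lost (adjusted p = 0.0710 to 0.186).

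The other Frizzled genes were not called. FZD4, known as the receptor of norrin as well as of Wnt proteins, read 5.47 and 5.86 in GFP-RhoGDI2 cells and 6.29 and 6.06 in GFP cells. Its difference of -0.51 was uneven, -0.82 in preparation A and -0.20 in preparation B, and missed the threshold (adjusted p = 0.111). FZD1 and FZD5 differed by -0.09 and -0.11, with 95% intervals of -0.34 to 0.16 and -0.35 to 0.13. FZD6 and FZD7 lay below the filter level, FZD6 at 2.95 and 2.83 in GFP-RhoGDI2 cells and 3.02 and 3.07 in GFP cells. FZD7 was at 4.67 and 4.51 in GFP-RhoGDI2 cells, against 4.28 and 4.53 in GFP cells.

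None of the 5 co-receptors was called at its highest probe set, and their differences had both signs. ROR1, a receptor tyrosine kinase family member that binds WNT5A, read 8.57 and 8.47 in GFP-RhoGDI2 cells and 8.16 and 8.14 in GFP cells. The groups were separate, and the difference of 0.37 missed the threshold (95% interval 0.14 to 0.60, adjusted p = 0.0720), with all 3 ROR1 probe sets above 0. ROR2, its close relative and the better known WNT5A receptor, read 5.36 and 4.94 in GFP-RhoGDI2 cells, against 5.72 and 5.61 in GFP cells. The ROR2 groups were separate too, with the opposite sign, at -0.51 (95% interval -0.79 to -0.23, adjusted p = 0.0535). LRP6, the co-receptor of the beta-catenin branch, read 8.33 and 8.43 in GFP-RhoGDI2 cells and 8.68 and 8.79 in GFP cells, a difference of -0.36 (adjusted p = 0.0751). All 3 LRP6 probe sets had differences below 0, and 1 of them was called, at -0.46 (adjusted p = 0.0495). LRP5, which serves the same step, differed by 0.08 (95% interval -0.22 to 0.38), and RYK, an atypical kinase that binds Wnt proteins, by -0.08 (95% interval -0.31 to 0.16).

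The secreted inhibitors DKK1 and DKK3 changed in opposite directions. DKK1, which blocks LRP5 and LRP6 and is itself a target gene of beta-catenin, read 8.57 and 8.49 on the GFP-RhoGDI2 arrays, against 9.61 and 9.77 on the GFP arrays. The fall was 1.04 in preparation A and 1.29 in preparation B. DKK1 was 2.24-fold lower in the GFP-RhoGDI2 line, a difference of -1.16 (SE 0.105, adjusted p = 0.00479, 95% interval -1.43 to -0.90); the array has 1 probe set for it. DKK3, a divergent Dickkopf protein that is not a classical LRP6 blocker, read 7.82 and 7.99 on the GFP-RhoGDI2 arrays, against 7.10 and 7.13 on the GFP arrays. It was 1.73-fold higher (difference 0.79, SE 0.0961, adjusted p = 0.0120). A second DKK3 probe set was higher by 0.75 (adjusted p = 0.0127), while the other 4 lay below the filter level, with differences from -0.06 to 0.60. With array B of the GFP-RhoGDI2 group left out, DKK3 was no longer called (difference 0.70, adjusted p = 0.0830).

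KREMEN1, a cell surface receptor for DKK1, read 5.51 and 5.45 in GFP-RhoGDI2 cells, against 4.84 and 5.36 in GFP cells. Most of its difference of 0.38 came from preparation A, where it was 0.66, against 0.10 in preparation B (adjusted p = 0.180). SFRP1, a secreted decoy for Wnt proteins, was below the filter level on all 4 probe sets, at 4.33 and 4.14 in GFP-RhoGDI2 cells and 4.28 and 4.24 in GFP cells on the highest of them.

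**Figure D2:**
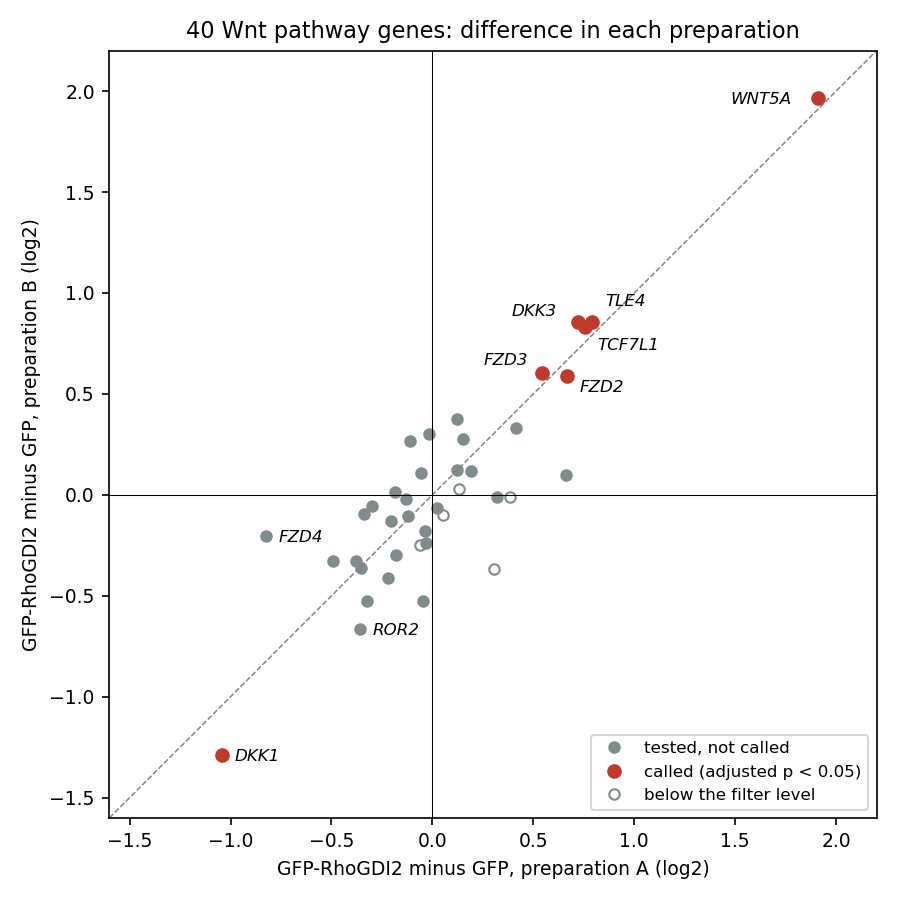
GFP-RhoGDI2 minus GFP (log2) in preparation A (horizontal) and preparation B (vertical) for the 40 matched Wnt pathway genes; red points are called genes, grey points were tested and not called, open points lie below the filter level, and the dashed line marks equal differences. WNT5A sits at 1.91 and 1.97, DKK1 at -1.04 and -1.29, and FZD4 is among the genes farthest from the line, at -0.82 and -0.20.

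The genes that set receptor turnover were not called. ZNRF3, a ubiquitin ligase that removes Frizzled from the membrane and is induced by beta-catenin, read 8.10 and 7.97 in GFP-RhoGDI2 cells and 8.32 and 8.38 in GFP cells. Its groups were separate, with a difference of -0.32 (95% interval -0.56 to -0.07, adjusted p = 0.117). RNF43, its relative with the same role, was below the filter level, at 4.12 and 3.59 in GFP-RhoGDI2 cells and 3.81 and 3.96 in GFP cells. LGR4, a receptor for R-spondins, differed by -0.17 (adjusted p = 0.316).

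Dishevelled, the adaptor that binds activated Frizzled, is encoded by 3 genes, and none was called. DVL2 read 8.002 and 8.05 in GFP-RhoGDI2 cells, against 8.38 and 8.37 in GFP cells, a difference of -0.35 (adjusted p = 0.0792). Its second probe set gave -0.45 (adjusted p = 0.0880), so neither was called. DVL1 and DVL3 differed by 0.16 and 0.25 (adjusted p = 0.441 and 0.204).

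Beta-catenin and its destruction complex were not called at the highest probe set of any of the 5 genes. CTNNB1, which encodes beta-catenin, read 11.26 and 11.11 in GFP-RhoGDI2 cells, against 11.29 and 11.34 in GFP cells, a difference of -0.13 (95% interval -0.39 to 0.12, adjusted p = 0.449). Its other probe sets disagreed. One probe set read 5.64 and 5.64 in GFP-RhoGDI2 cells, against 6.12 and 6.04 in GFP cells, and was called lower (difference -0.44, adjusted p = 0.0499). Another read 7.08 and 6.64 in GFP-RhoGDI2 cells, against 6.28 and 6.38 in GFP cells, and was not called (difference 0.52, adjusted p = 0.0881). The probe sets of CTNNB1 thus give no single direction.

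AXIN1, the scaffold of the destruction complex, read 6.36 and 5.99 in GFP-RhoGDI2 cells, against 6.68 and 6.52 in GFP cells. The AXIN1 difference of -0.42 missed the threshold (95% interval -0.67 to -0.17, adjusted p = 0.0639). AXIN2, the scaffold that beta-catenin induces as feedback, read 5.44 and 5.69 in GFP-RhoGDI2 cells, against 5.32 and 5.57 in GFP cells. Its groups overlapped, with a difference of 0.12 (95% interval -0.11 to 0.35, adjusted p = 0.448), and its other 3 probe sets lay below the filter level at -0.26 to 0.0025. APC, the tumour suppressor of the complex, differed by -0.18 (adjusted p = 0.343). All 5 APC probe sets were below 0, and 1 was called (difference -0.48, adjusted p = 0.0441). That probe set read 4.56 and 4.66 in GFP-RhoGDI2 cells and 4.97 and 5.21 in GFP cells. Its GFP-RhoGDI2 mean of 4.61 was below the filter level, so it entered the test only through its GFP mean of 5.09. For GSK3B, the kinase that marks beta-catenin for removal, the highest probe set differed by 0.16 (95% interval -0.07 to 0.39). The GSK3B probe set with the largest difference read 5.98 and 5.72 in GFP-RhoGDI2 cells and 4.90 and 5.79 in GFP cells, where the GFP A array alone stood low (difference 0.50, adjusted p = 0.282).

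**Figure D3:**
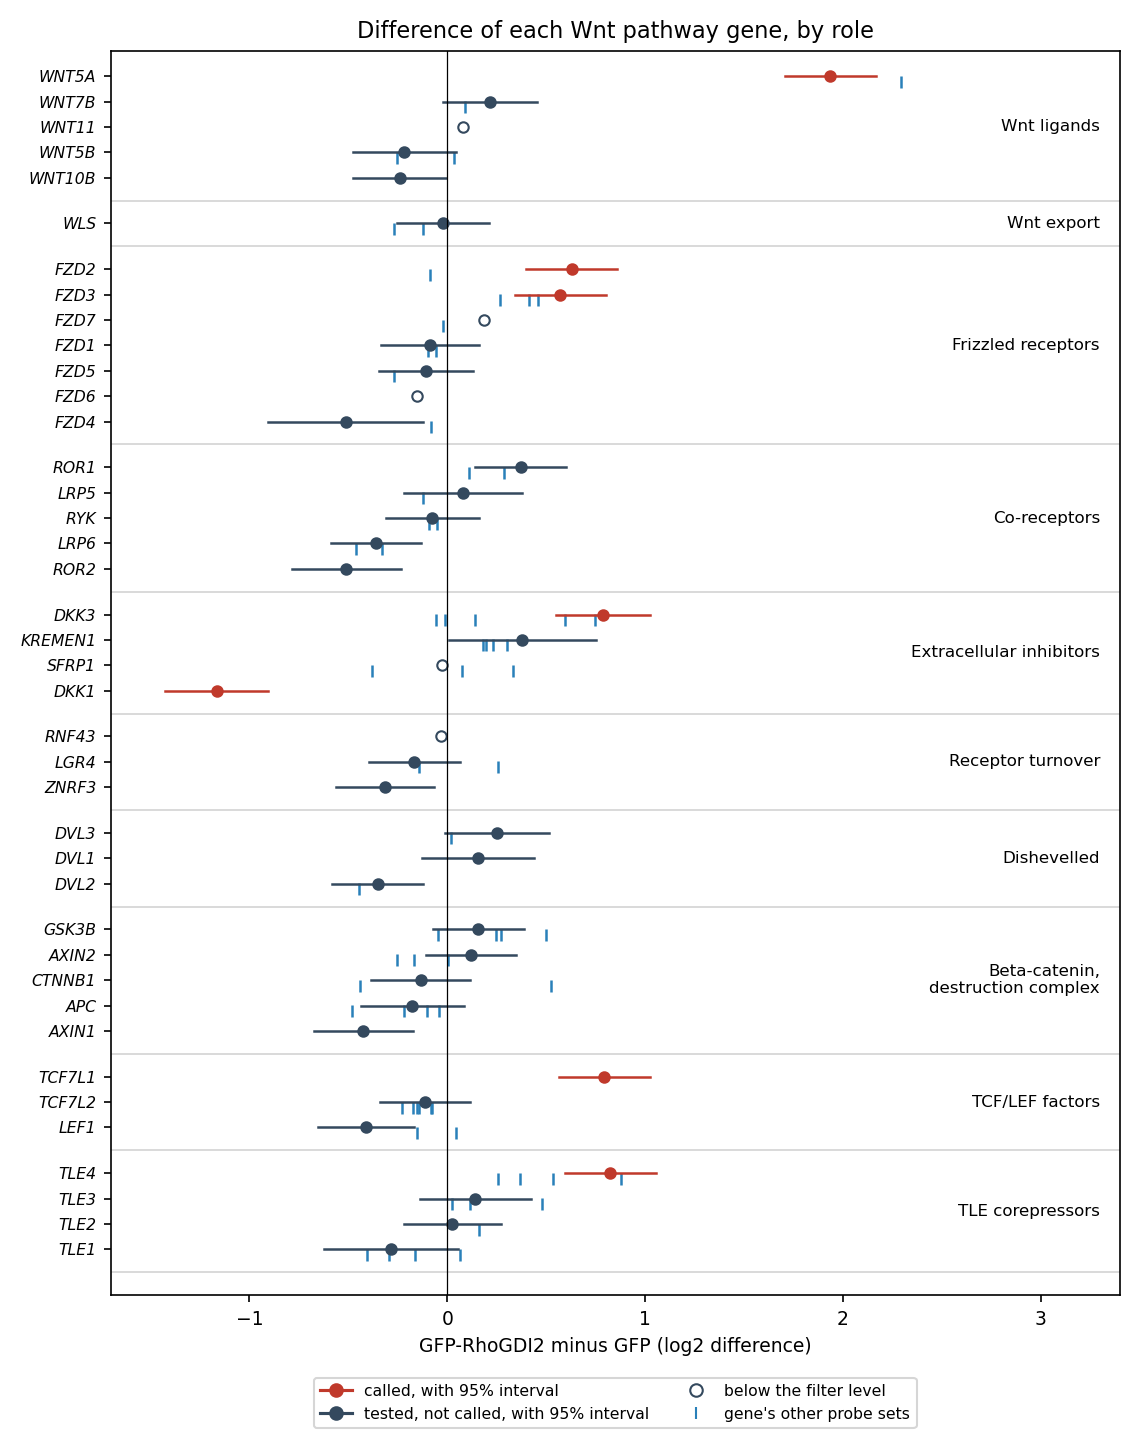
GFP-RhoGDI2 minus GFP (log2, horizontal axis) of each matched gene, grouped by role; filled points with lines are the gene's highest probe set with its 95% interval, red where called, open points lie below the filter level, and blue ticks are the gene's other probe sets. WNT5A at 1.94 and DKK1 at -1.16 stand at the ends, and the ticks of CTNNB1 fall on both sides of 0.

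Of the 3 TCF/LEF factors tested, 1 was called. TCF7L1, which acts mainly as a repressor of Wnt target genes, read 6.50 and 6.41 on the GFP-RhoGDI2 arrays, against 5.74 and 5.58 on the GFP arrays. It was 1.73-fold higher, with separate groups (difference 0.79, SE 0.0932, adjusted p = 0.0107). The array has 1 probe set for it, of a class that can match several transcripts, and leaving out array A or array B of the GFP-RhoGDI2 group ended the call (adjusted p = 0.0759 and 0.0624). LEF1, mainly an activator with beta-catenin and a target gene of it, read 8.08 and 8.11 in GFP-RhoGDI2 cells and 8.57 and 8.44 in GFP cells. The LEF1 difference of -0.41 missed the threshold (95% interval -0.65 to -0.17, adjusted p = 0.0646). Of its 3 probe sets, the others lay below the filter level, with differences of 0.04 and -0.15 and overlapping groups. TCF7L2, the main factor of this family in many epithelia, had 7 probe sets, all with differences between -0.23 and -0.08, and none was called (lowest adjusted p = 0.204).

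Of the TLE genes, whose products bind TCF/LEF factors and repress transcription, TLE4 was called. It read 7.15 and 7.27 on the GFP-RhoGDI2 arrays, against 6.35 and 6.42 on the GFP arrays. TLE4 was 1.77-fold higher (difference 0.82, SE 0.0927, adjusted p = 0.00952), and all 5 of its probe sets had differences above 0, from 0.26 to 0.88, though 4 of them lay below the filter level. With array B of the GFP-RhoGDI2 group left out, TLE4 missed the threshold (adjusted p = 0.0686). TLE3 differed by 0.14 at its highest probe set (adjusted p = 0.477) and was called at another, with 5.96 and 5.83 in GFP-RhoGDI2 cells and 5.43 and 5.40 in GFP cells (difference 0.48, adjusted p = 0.0416). TLE1 differed by -0.41 to -0.29 on its 3 tested probe sets without a call (lowest adjusted p = 0.0856), and TLE2 differed by 0.03 (95% interval -0.22 to 0.27).

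Besides the 7 called genes, 10 had an unadjusted p under 0.05, 8 of them lower in the GFP-RhoGDI2 line and 2 higher. In all 48.6% of the 35 had such a p, beside 27.1% over all genes tested. The groups did not overlap for 24 of the 35, or 68.6%, beside 54.5% over all genes. How many of the lower ones were called depended on the processing, as given further below. With an intensity trend in the moderation, 7 of the 35 were called higher and 9 lower, beside 23.7% of all genes called.

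Of 87 other Wnt pathway genes, 84 were matched, 49 were tested, and 3 were called higher and 0 lower; 13 had an unadjusted p under 0.05. That is 6.12% of those tested, near the 8.17% of all genes. PRICKLE2 and PRICKLE1, which encode cytoplasmic proteins of planar cell polarity, were among them. PRICKLE2 read 7.90 and 8.12 in GFP-RhoGDI2 cells, against 7.02 and 7.02 in GFP cells, and was 1.99-fold higher (adjusted p = 0.00763). PRICKLE1 read 7.74 and 8.02 in GFP-RhoGDI2 cells, against 7.19 and 7.06 in GFP cells, and was 1.69-fold higher (adjusted p = 0.0265). HBP1, a repressor that restrains TCF activity, read 7.57 and 7.80 in GFP-RhoGDI2 cells, against 6.93 and 7.12 in GFP cells, and was 1.58-fold higher (adjusted p = 0.0175). Of the VANGL and CELSR genes on the list, also of planar cell polarity, none was called. VANGL1 differed by 0.25 (adjusted p = 0.186) and CELSR1 and CELSR3 by -0.11 each, while VANGL2 and CELSR2 were below the filter level. The median difference of the list was -0.02.

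Textbook target genes of beta-catenin, which respond in some tissues and not in others, gave 46 genes, 32 of them tested. Of these, 3 were called higher: SNAI2 (difference 2.03), a repressor of epithelial genes, ID2 (0.99), an inhibitor of basic helix-loop-helix factors, and VEGFA (0.72), an angiogenic growth factor. DKK1 and the Notch ligand gene JAG1 (-0.69) were called lower. JAG1 read 8.58 and 8.44 in GFP-RhoGDI2 cells, against 9.18 and 9.21 in GFP cells. The called share was 15.6%, beside 8.17% of all genes tested, and 7 of the 46 genes are also among the 44 described above, DKK1 and LEF1 included. Of the 32, 17 had a difference above 0 and 15 below, 13 had an unadjusted p under 0.05, and the median difference was 0.02.

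**Figure D4:**
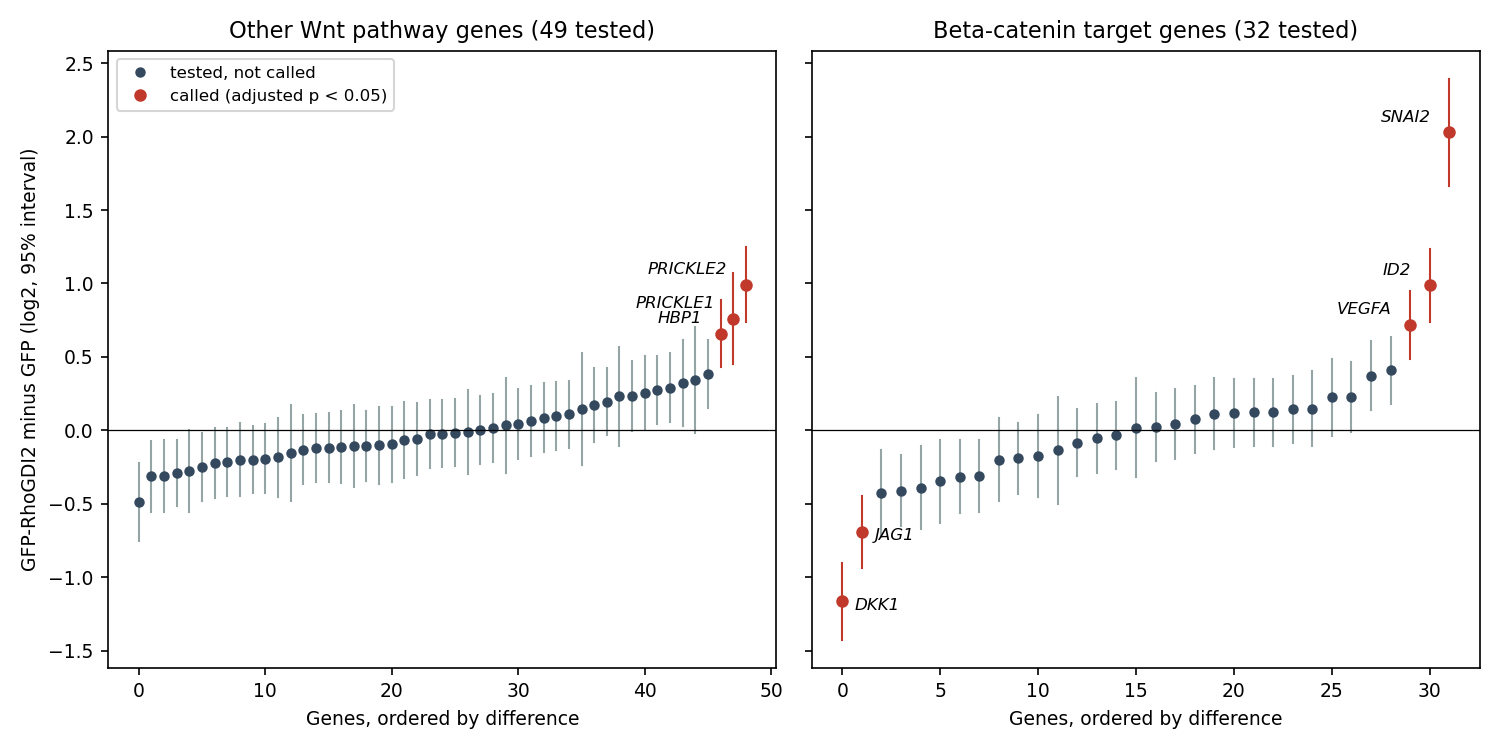
GFP-RhoGDI2 minus GFP (log2, with 95% interval, vertical axis) for the 49 tested other Wnt pathway genes (left) and the 32 tested beta-catenin target genes (right), each ordered by difference along the horizontal axis; red marks called genes. On the left the called genes lie at the upper end, and on the right they lie at both ends.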

How the data were processed

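The authors deposited log2 values, 1 per probe set and array, and the submitters' processing notes name RMA as the method; its software is not given in the sources used. Array medians were 4.62 to 4.65, and no further normalization was applied. Control probe sets (62 of 54675) were left out. Genes were named from the platform annotation, updated by gene ID to RefSeq symbols, only where it gives 1 gene (41091 probe sets); 1801 name several genes and 11721 are unnamed here. A gene was its probe set with the highest mean over the 4 arrays. Probe sets with a mean at or above the median, 4.64, were tested.

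Differences were fitted in R 4.3.3 by limma 3.58.1, blocking on preparation because the labels state the pairing (as a check, the A minus B deviations of both groups had r = 0.264 over tested probe sets). Variances were moderated (1 residual degree of freedom, 4.71 added, prior SD 0.101), and p-values were adjusted by Benjamini-Hochberg over all 27307 probe sets tested. Replicates A and B are biological per the labels. With the block, p-values weigh a difference against how far it varied between preparations A and B, moderated by that spread over all tested probe sets.

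The genes and lists were chosen with earlier results of these data known. Values on every array are given for all ligands, called genes, genes with an unadjusted p under 0.05 and genes with a probe set differing by at least 0.5; in the other lists, called genes are named. The 12 alternatives were other filters, moderation, normalization and probe set choices, no block, and each array left out.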

Additional observations from a re-analysis of the deposited data

How the results depend on the processing

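The rise of WNT5A and the fall of DKK1 were called as reported and under all 12 alternatives. Without the replicate block, which leaves the differences unchanged, 641 genes (5.29%) were called in place of 991 (8.17%). FZD2 was the only 1 of the 7 called Wnt genes that was lost, and the block moved no other call among the 35. With 1 array left out and no block, 1 to 4 Wnt genes were called higher, 215 to 421 of all genes, 1 to 2 of the other pathway genes and 3 to 4 of the target genes; the median difference of the Wnt genes was -0.109 to -0.00804. The lowest count came with array B of the GFP-RhoGDI2 group left out. Above the upper quartile of probe set means, 22 Wnt genes were tested, and 4 were called higher and 5 lower, with a median of -0.110. Of all genes tested there, 1876 of 7442 (25.2%) were called, and with them 7 other pathway genes and 10 target genes. TLE4, FZD2 and TCF7L1 were not tested there. The calls gained were ROR1, higher, and LRP6, LEF1, DVL2 and ZNRF3, lower. With an intensity trend, 7 of the 35 Wnt genes were called higher and 9 lower. ROR1 was gained as higher, and WNT5B, LRP6, LEF1, DVL2, ZNRF3, AXIN1, FZD4 and ROR2 as lower. Of all genes 2879 (23.7%) were called then, and with them 10 other pathway genes and 14 target genes. When a gene was the average over its probe sets, 30 Wnt genes were tested, and 5 were called higher and 6 lower, with a median of -0.110. In that setting 2314 of 10947 genes (21.1%) were called, and with them 10 target genes. DKK3 and TLE4 fell below the filter. Gained calls were ROR1, higher, and AXIN1, DVL2, LRP6, ROR2 and ZNRF3, lower. With probe sets that can match several transcripts left out, 28 Wnt genes were tested, with a median of -0.0301. Of these, 5 were called higher and 3 lower, ROR2 and APC besides DKK1, and TCF7L1 was no longer tested. The APC call there came from the probe set whose GFP-RhoGDI2 mean was below the filter level. Over all genes 789 of 9362 (8.43%) were called. The median was -0.0282 with no filter and -0.104 after quantile normalization. The cause of these shifts was not tested. No tested Wnt gene reversed a called direction under any alternative.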

Other observations

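Of the 13 called probe sets of the Wnt genes, 6 were not the highest probe set of their gene. The second probe sets of WNT5A and DKK3 rose with the first. For LRP6, APC, CTNNB1 and TLE3, by contrast, a lower-reading probe set was called while the highest was not. That of APC had a GFP-RhoGDI2 mean of 4.61, below the filter level. Of the 20 genes with at least 2 tested probe sets, 17 had differences of the same sign on all of them, and 3 had mixed signs. Which transcripts these probe sets match was not analysed here.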
